A study of Mus musculus with 24 samples.

Results

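The cytochrome P450 genes were followed through 24 mouse libraries in 6 groups of 4 animals. They were taken as every gene of the deposited table whose symbol starts with Cyp and a digit, leaving out 15 pseudogenes and 3 genes of sterol synthesis and vitamin D turnover (Cyp51, Cyp24a1 and Cyp27b1). Of 30153 gene rows, 97 met this rule, and 42 of them reached 1 TPM (a gene's length-corrected share of a library's transcripts) in 4 or more libraries. The series asks how a western diet acts on kidney transcripts of hypertensive mice that overexpress the human angiotensin receptor type 1. The groups on western diet (WD) were aged Hap-I, adult Hap-I and adult Hap-II mice, here Hap-I aged WD, Hap-I adult WD and Hap-II adult WD. Hap-I and Hap-II are mice with haplotype I or haplotype II of that human receptor gene. Hap-I aged and Hap-I adult mice, whose labels name no diet, and C57 adults, whose labels name neither haplotype nor diet, made up the rest. Every library is labelled as kidney of strain C57/BL6, so all groups share the strain. The labels give no age in weeks, no sex and no promoter for the human gene. A western diet group without the human gene was not analysed here, so diet and receptor gene cannot be told apart against C57.

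P450 enzymes are haem proteins that insert an oxygen atom into lipids, steroids and foreign compounds, drawing electrons from NADPH-cytochrome P450 reductase in the endoplasmic reticulum or from ferredoxin in mitochondria. In the kidney, enzymes of the Cyp2c and Cyp2j subfamilies turn arachidonic acid into epoxides that act on vessels and salt transport, and Cyp4a enzymes hydroxylate it at the end of its chain. In mouse kidney and liver several of these genes are known to differ between the sexes, with Cyp4a12a and Cyp2j13 higher in males and Cyp4a14 higher in females.

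Some libraries stood apart. The 8 libraries of Hap-I aged and Hap-I adult mice without the diet went against their tissue label. Summed over 8 neuronal markers they held 4101 to 5105 TPM, against 0.729 to 6.64 TPM in the other 16 libraries. Summed over 9 proximal tubule markers they held 7.21 to 25.6 TPM, against 706 to 3431 TPM. They are called by their labels below, and the other 16 are called kidney libraries. Among the 12 western diet libraries, 4 Y-linked genes (Eif2s3y, Ddx3y, Uty and Kdm5d) summed to 5 TPM or more in 7, namely libraries 3 and 4 of Hap-I aged WD, 2, 3 and 4 of Hap-I adult WD, and 3 and 4 of Hap-II adult WD. The other 5 western diet libraries and all 4 C57 libraries lay below that sum, the C57 ones at 0.73 to 0.954 TPM, while all 8 Hap-I libraries without the diet lay above it. Mitochondrially encoded transcripts took 25.0 to 34.7% of TPM in Hap-I adult WD and 21.2 to 27.8% in Hap-II adult WD, against 12.4 to 16.9% in C57 libraries. Read depth is unknown, since TPM keep no totals. In such tissue libraries fewer cells of a type and less RNA per cell cannot be told apart.

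Summed over the 97 genes, P450 transcripts made up 0.027 to 0.0349% of TPM in the 8 Hap-I libraries without the diet, against 0.108 to 0.592% in the 16 kidney libraries. The sum was 2872 ± 1897 TPM in Hap-I aged WD, 2476 ± 887 TPM in Hap-I adult WD and 2374 ± 861 TPM in Hap-II adult WD, against 2593 ± 344 TPM in C57 kidneys (SD, n = 4 each). The spread between western diet libraries exceeded the distance between these means. Family 2 and family 4 carried nearly all of it, with 1405 ± 454 and 923 ± 399.7 TPM in Hap-II adult WD, against 1625 ± 156 and 902 ± 195 TPM in C57 kidneys.

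The 42 genes came mostly from those families, 21 of 49 from family 2 and 13 of 20 from family 4. Family 3, the chief drug-metabolising family of liver, gave 0 of 9. Single genes came from families 1, 7, 11, 20, 21, 27, 39 and 46. Of the 55 genes left, 46 never reached 1 TPM and 7 of those were listed at 0 in every library. The bile acid enzyme Cyp7a1 was among the 46. The androgen-forming enzyme Cyp17a1 peaked at 0.464 TPM, aromatase (Cyp19a1) at 0.341 TPM and aldosterone synthase (Cyp11b2) at 0.109 TPM. Just outside the limit, 9 genes reached 1 TPM in 1 to 3 libraries. Cyp3a11 did so in 3, with a highest value of 3.25 TPM, and Cyp2c68 in 3, with 2.11 TPM. Cyp1a1, Cyp2b10, Cyp2c29, Cyp4a32, Cyp4f17, Cyp11b1 and Cyp26b1 peaked between 1.03 and 2.41 TPM. Just inside it, Cyp21a1 and Cyp4f18 reached 1 TPM in 5 libraries each.

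**Figure D1:**
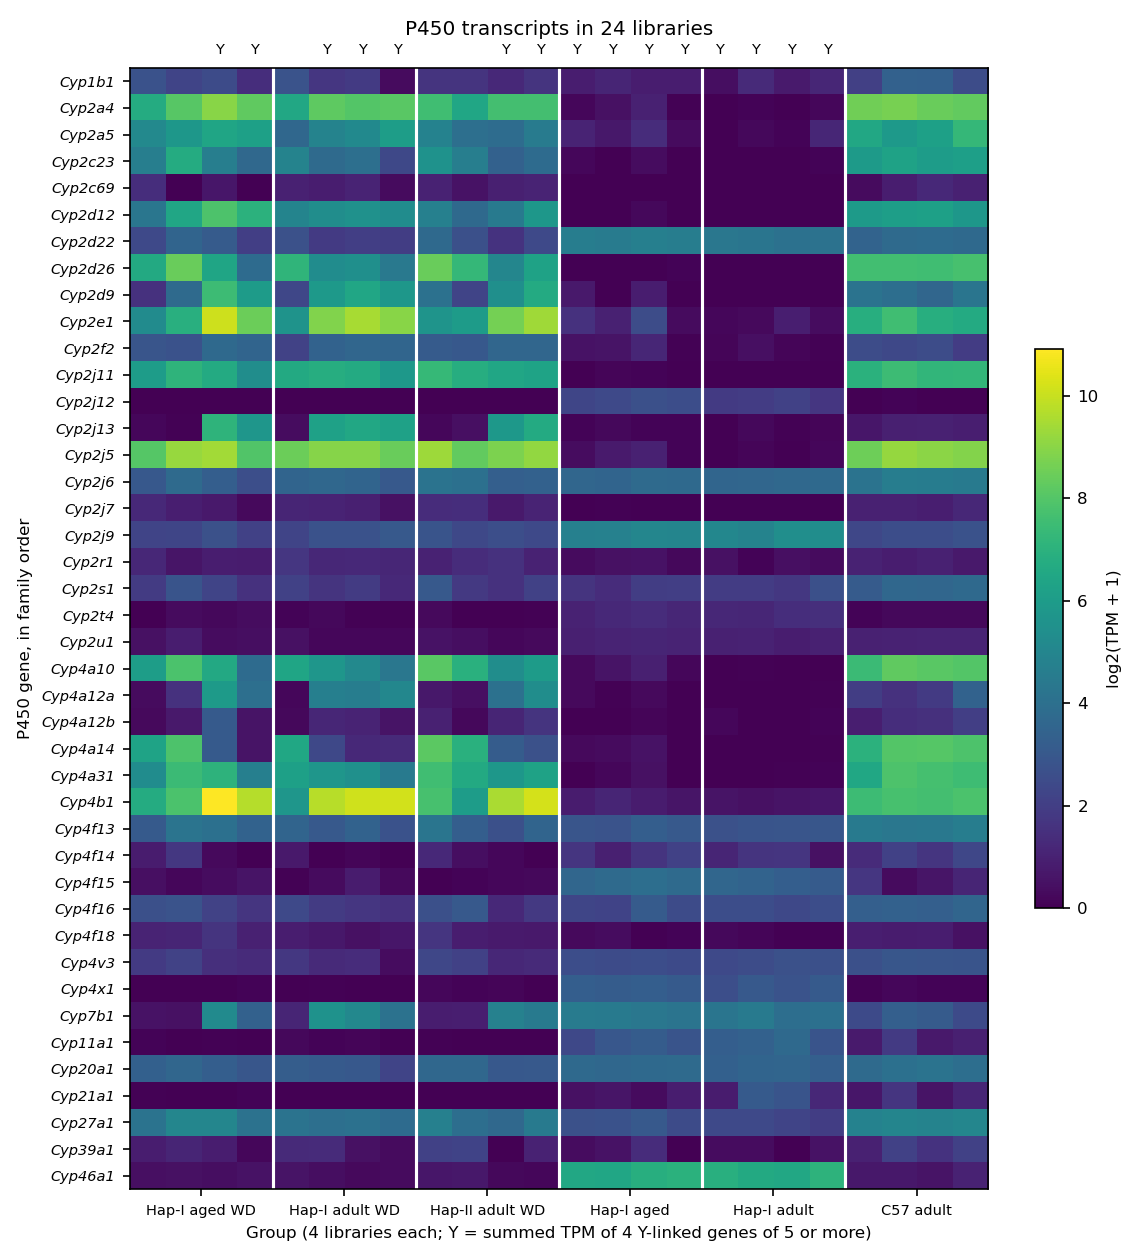
Heat map of log2(TPM + 1) for the 42 P450 genes (rows, in family order) in 24 libraries (columns, 4 per group); a Y above a column marks a library in which 4 Y-linked genes sum to 5 TPM or more. Cyp46a1, Cyp2j9 and Cyp4x1 are bright in the 8 Hap-I libraries without the diet, and Cyp4b1, Cyp2j5 and Cyp2e1 in the 16 kidney libraries.

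On chromosome 4 lie 14 of the 42 genes, and 7 of these are Cyp2j genes side by side between positions 96027534 and 96664154 of GRCm38. Members of this single cluster differed in which libraries carried them. Cyp2j5, an arachidonate epoxygenase of mouse kidney (ENSMUSG00000052520, GRCm38 chr4:96628773-96664154, minus strand), had 265, 605, 685 and 248 TPM in Hap-I aged WD, 353, 489, 496 and 339.6 TPM in Hap-I adult WD and 644, 315, 439 and 559 TPM in Hap-II adult WD libraries, against 369, 586, 518 and 480.3 TPM in C57 libraries. In the 8 Hap-I libraries without the diet it ranged over 0 to 1.03 TPM (median 0.118). All 16 kidney libraries were thus high and their groups overlapped. Cyp2j11 (chr4:96294508-96348662) had 63.9, 136, 100.3 and 40.2 TPM in Hap-I aged WD, 97.8, 109, 101 and 56.3 TPM in Hap-I adult WD and 159, 111, 87.8 and 78.6 TPM in Hap-II adult WD libraries, against 126, 178, 145 and 150.3 TPM in C57 libraries. Cyp2j9, known from mouse brain (ENSMUSG00000015224, GRCm38 chr4:96568429-96591578, minus strand), ran the other way, with 26.2, 26.8, 31.5 and 30.2 TPM in Hap-I aged and 32.2, 28.6, 41.5 and 40.2 TPM in Hap-I adult libraries without the diet, against 4.06, 4.90, 4.96 and 5.67 TPM in C57 libraries, and 3.35 to 7.21 TPM (median 4.75) over the 12 western diet libraries. Cyp2j12 (chr4:96099318-96141152) had 3.90, 4.33, 5.33 and 4.96 TPM in Hap-I aged and 2.64, 2.87, 3.33 and 2.27 TPM in Hap-I adult libraries without the diet, against 0, 0.0744, 0 and 0 TPM in C57 libraries, and it stayed at or under 0.0228 TPM on western diet. Every Hap-I library without the diet therefore exceeded every kidney library for Cyp2j9 and Cyp2j12. Cyp2j13 (ENSMUSG00000028571, GRCm38 chr4:96027534-96077546, minus strand) had 0.143, 0.0490, 138 and 52.1 TPM in Hap-I aged WD, 0.285, 74.2, 93.8 and 74.5 TPM in Hap-I adult WD and 0.135, 0.353, 55.1 and 103 TPM in Hap-II adult WD libraries, against 0.586, 0.939, 1.03 and 0.908 TPM in C57 libraries. Its 7 libraries above 50 TPM were the 7 western diet libraries with Y-linked transcripts, and the other 9 kidney libraries lay at or below 1.03 TPM. The 8 Hap-I libraries without the diet, which also carry Y-linked transcripts, had only 0.0278 to 0.191 TPM (median 0.0757) of it. Cyp2j6 was present throughout, at 10.5 to 12.8 TPM (median 11.6) in the 8 Hap-I libraries without the diet and 5.202 to 23.4 TPM (median 10.97) in the kidney libraries. Cyp2j7 reached 1.69 TPM at most.

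RefSeq promoter windows (build GRCm38.p6, 250 bases before to 50 after an annotated start) were found for 28 of the 42 genes. The 4 Cyp2j windows are shown because these neighbours were carried by different libraries. The Cyp4b1 and Cyp46a1 windows belong to the members with the highest mean over the 16 kidney libraries and over the 8 Hap-I libraries without the diet. Capitals mark matches, on either strand, to any of 6 motifs. These were the TATA box, spelled TATAAA, and the GC box that Sp1 is known to bind, spelled GGGCGG. The CCAAT box was searched as its own letters. The half-site of many nuclear receptors was spelled AGGTCA, and that of the glucocorticoid receptor AGAACA. The half-site of HNF1, a factor of liver and kidney epithelium, was spelled GTTAAT. No marked match overlapped another. Each line gives the gene and the window from 5′ to 3′ along the gene.
Cyp2j5 (chr4:96664070-96664369, minus strand): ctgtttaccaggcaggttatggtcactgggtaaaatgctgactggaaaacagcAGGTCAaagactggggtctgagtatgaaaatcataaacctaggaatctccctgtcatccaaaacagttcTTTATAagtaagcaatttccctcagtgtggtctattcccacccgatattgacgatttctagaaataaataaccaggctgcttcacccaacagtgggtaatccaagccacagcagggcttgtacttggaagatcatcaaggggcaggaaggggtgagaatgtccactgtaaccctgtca
Cyp2j9 (chr4:96591436-96591735, minus strand): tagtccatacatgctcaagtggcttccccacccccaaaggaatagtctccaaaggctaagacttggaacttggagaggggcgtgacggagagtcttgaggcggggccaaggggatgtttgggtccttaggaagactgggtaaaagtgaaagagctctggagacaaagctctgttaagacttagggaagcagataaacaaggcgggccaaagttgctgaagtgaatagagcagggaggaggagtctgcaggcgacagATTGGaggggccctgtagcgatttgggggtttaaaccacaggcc
Cyp2j12 (chr4:96141103-96141402, minus strand): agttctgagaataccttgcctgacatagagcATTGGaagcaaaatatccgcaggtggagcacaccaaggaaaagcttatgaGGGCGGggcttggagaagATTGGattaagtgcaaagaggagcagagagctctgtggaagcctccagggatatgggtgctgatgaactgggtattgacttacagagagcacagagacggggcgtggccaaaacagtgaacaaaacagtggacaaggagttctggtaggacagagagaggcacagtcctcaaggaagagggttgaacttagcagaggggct
Cyp2j13 (chr4:96077491-96077790, minus strand): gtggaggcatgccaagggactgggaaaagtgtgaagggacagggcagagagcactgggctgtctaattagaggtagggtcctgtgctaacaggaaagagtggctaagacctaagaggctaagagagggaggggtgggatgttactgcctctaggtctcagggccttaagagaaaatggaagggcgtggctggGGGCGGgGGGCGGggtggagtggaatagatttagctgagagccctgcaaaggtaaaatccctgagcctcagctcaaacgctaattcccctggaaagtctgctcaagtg
Cyp4b1 (chr4:115647672-115647971, minus strand): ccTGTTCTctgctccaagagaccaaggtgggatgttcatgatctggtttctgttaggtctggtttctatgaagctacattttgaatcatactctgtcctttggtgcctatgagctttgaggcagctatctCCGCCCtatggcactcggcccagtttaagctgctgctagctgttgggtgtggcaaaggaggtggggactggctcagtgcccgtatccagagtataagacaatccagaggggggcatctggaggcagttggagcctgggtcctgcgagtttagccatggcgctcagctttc
Cyp46a1 (chr12:108334066-108334365, plus strand): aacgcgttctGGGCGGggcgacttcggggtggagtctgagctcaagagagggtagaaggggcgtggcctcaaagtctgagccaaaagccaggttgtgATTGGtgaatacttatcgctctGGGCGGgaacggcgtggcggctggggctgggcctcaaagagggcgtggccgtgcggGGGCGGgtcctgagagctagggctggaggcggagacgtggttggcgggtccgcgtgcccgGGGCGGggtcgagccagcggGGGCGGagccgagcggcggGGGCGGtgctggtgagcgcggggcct
The Cyp2j5 window held 1 match to the TATA box letters, on the opposite strand and near the middle of the window. A match on either strand is in 13.6% of all 32851 windows. The Cyp2j5 window also held 1 nuclear receptor half-site, which 16.3% hold. The Cyp2j13 window held 2 GC boxes and the Cyp46a1 window 6, and Cyp2j12 and Cyp4b1 1 each, where 35.7% of all windows hold at least 1. Cyp46a1 was also the richest of the 6 in G and C, at 70.3% of bases, against 45.3% for Cyp2j5 and a median of 52.7% over all windows. Cyp4b1 held 1 glucocorticoid receptor half-site, which 19.0% of windows hold, and neither Cyp2j13 window in the table held one. The CCAAT box was in 37.4% of all windows, with 2 matches in Cyp2j12 and 1 each in Cyp2j9 and Cyp46a1. The HNF1 half-site was in 7.10% of windows and in none of these 6. These are letter matches, not measured binding.

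Family 4 held the P450 transcript with the highest mean over the 16 kidney libraries, Cyp4b1, though Cyp2j5 was higher in 9 of the 16 and by the median (485 TPM for Cyp2j5 and 228 TPM for Cyp4b1). Cyp4b1, a fatty acid hydroxylase that also activates plant furans (ENSMUSG00000028713, GRCm38 chr4:115624725-115647723, minus strand), had 103, 227, 1937 and 825 TPM in Hap-I aged WD, 51.7, 866, 1117 and 1164 TPM in Hap-I adult WD and 216, 64.0, 742 and 1189 TPM in Hap-II adult WD libraries, against 178, 211, 199 and 229 TPM in C57 libraries. The western diet libraries with Y-linked transcripts held 742 to 1937 TPM of Cyp4b1 and those without held 51.7 to 227 TPM, with no western diet library between. The fatty acid omega-hydroxylases Cyp4a10 and Cyp4a14, both known targets of the fasting receptor PPAR alpha, were high in C57 kidneys. Cyp4a10 (ENSMUSG00000066072, GRCm38 chr4:115518264-115533649, plus strand) had 66.3, 226, 96.8 and 13.1 TPM in Hap-I aged WD, 84.7, 52.6, 34.1 and 19.4 TPM in Hap-I adult WD and 275, 121, 39.7 and 63.4 TPM in Hap-II adult WD libraries, against 174, 301, 276 and 257 TPM in C57 libraries. Every Hap-I adult WD library lay below every C57 library for Cyp4a10, while library 2 of Hap-I aged WD and library 1 of Hap-II adult WD lay within the C57 range. Cyp4a14 (ENSMUSG00000028715, GRCm38 chr4:115486200-115496142, minus strand) had 79.7, 231, 7.56 and 0.508 TPM in Hap-I aged WD, 90.5, 4.09, 1.41 and 1.44 TPM in Hap-I adult WD and 291, 119.9, 8.12 and 5.48 TPM in Hap-II adult WD libraries, against 127, 254, 261 and 234 TPM in C57 libraries. On western diet Cyp4a14 lay at 0.508 to 8.12 TPM in the libraries with Y-linked transcripts and at 79.7 to 291 TPM in those without, against 127 to 261 TPM in C57 kidneys. Cyp4a31 had 39.0, 175, 132 and 25.0 TPM in Hap-I aged WD, 72.6, 51.7, 43.2 and 21.7 TPM in Hap-I adult WD and 187, 98.2, 53.4 and 77.9 TPM in Hap-II adult WD libraries, against 89.4, 233, 205 and 183 TPM in C57 libraries. Its Hap-I adult WD and C57 libraries did not overlap, and those of the other western diet groups overlapped C57. Cyp4a12a, the chief maker of hydroxylated arachidonic acid in male mouse kidney, had 0.265, 1.90, 61.6 and 15.1 TPM in Hap-I aged WD, 0.134, 25.0, 24.0 and 32.4 TPM in Hap-I adult WD and 0.653, 0.373, 15.9974 and 39.7 TPM in Hap-II adult WD libraries, against 2.93, 1.94, 2.59 and 9.77 TPM in C57 libraries. Its 7 highest kidney libraries were the 7 with Y-linked transcripts. Its near copy Cyp4a12b had 0.201, 0.654, 7.45 and 0.496 TPM in Hap-I aged WD, 0.175, 1.29, 1.14 and 0.511 TPM in Hap-I adult WD and 1.02, 0.169, 1.16 and 2.12 TPM in Hap-II adult WD libraries, against 0.913, 1.72, 1.86 and 3.13 TPM in C57 libraries. Reads of this pair may have been divided unevenly between them, since at least 50% of their 31-base words are shared, and each value is uncertain alone. Likewise at least 50% of the words of Cyp2a4 occur in Cyp2a5, and at least 50% of those of Cyp2c69 in Cyp2c40.

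The Cyp4f genes, which inactivate leukotrienes, and their relatives were less abundant than Cyp4a10. Cyp4f13 had 7.55, 17.5, 15.2 and 9.73 TPM in Hap-I aged WD, 10.4, 7.32, 9.71 and 5.74 TPM in Hap-I adult WD and 18.2, 8.58, 5.42 and 10.5 TPM in Hap-II adult WD libraries, against 21.4, 19.2, 20.02 and 23.6 TPM in C57 libraries. Cyp4f14 had 0.780, 2.40, 0.215 and 0 TPM in Hap-I aged WD, 0.669, 0, 0.0978 and 0 TPM in Hap-I adult WD and 1.40, 0.306, 0.142 and 0 TPM in Hap-II adult WD libraries, against 1.55, 3.29, 2.17 and 3.98 TPM in C57 libraries. Cyp4f16 had 5.40, 5.97, 3.46 and 2.24 TPM in Hap-I aged WD, 4.28, 2.77, 2.31 and 1.93 TPM in Hap-I adult WD and 5.35, 7.32, 1.40 and 2.53 TPM in Hap-II adult WD libraries, against 8.83, 9.36, 8.98 and 10.9 TPM in C57 libraries. C57 libraries were above every western diet library for Cyp4f13 and Cyp4f16 and overlapped them for Cyp4f14. Cyp4f14 reached 1 TPM in 2 of 12 western diet and 4 of 4 C57 libraries, so it passed the filter on low values only through C57 and had to differ from it. Cyp4v3, the mouse form of a fatty acid hydroxylase mutated in a human retinal dystrophy, had 2.65, 3.41, 1.75 and 1.54 TPM in Hap-I aged WD, 2.37, 1.498, 1.63 and 0.299 TPM in Hap-I adult WD and 3.95, 3.26, 1.31 and 1.45 TPM in Hap-II adult WD libraries, against 5.30, 6.60, 6.25 and 6.23 TPM in C57 libraries. All 4 C57 values exceeded all 12 western diet values of Cyp4v3. Cyp4f18 reached at most 2.21 TPM. Cyp4f15 and Cyp4x1 belonged to the Hap-I libraries without the diet and are described with them.

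Among the other family 2 genes, Cyp2e1, which oxidises ethanol and small solvents (ENSMUSG00000025479, GRCm38 chr7:140763739-140774987, plus strand), had 37.4, 117, 1083 and 349 TPM in Hap-I aged WD, 48.1, 455, 723 and 499 TPM in Hap-I adult WD and 49.7, 62.3, 394 and 656 TPM in Hap-II adult WD libraries, against 114, 188, 114 and 103 TPM in C57 libraries. The 7 western diet libraries with Y-linked transcripts held 349 to 1083 TPM and the 5 without held 37.4 to 117 TPM. Cyp2a4, a steroid hydroxylase (chr7:26307169-26315088), had 106, 268, 502 and 307 TPM in Hap-I aged WD, 92.7, 296, 258 and 281 TPM in Hap-I adult WD and 192, 86.8, 198 and 203 TPM in Hap-II adult WD libraries, against 379, 406, 342 and 309 TPM in C57 libraries. Its Hap-I adult WD and Hap-II adult WD libraries all lay below the C57 libraries, and library 3 of Hap-I aged WD lay above them. Cyp2a5, a coumarin hydroxylase, had 33.9, 53.7, 85.7 and 73.9 TPM in Hap-I aged WD, 11.7, 28.5, 35.1 and 66.3 TPM in Hap-I adult WD and 27.9, 14.9, 13.5 and 22.2 TPM in Hap-II adult WD libraries, against 91.8, 57.7, 71.8 and 153 TPM in C57 libraries. Of the adult groups, only Hap-II adult WD did not overlap C57 for Cyp2a5. Cyp2c23, listed elsewhere as Cyp2c44 and the main arachidonate epoxygenase of its subfamily in mouse kidney (ENSMUSG00000025197, GRCm38 chr19:44005022-44029208, minus strand), had 24.7, 106, 24.2 and 11.96 TPM in Hap-I aged WD, 28.2, 12.9, 14.9 and 4.18 TPM in Hap-I adult WD and 46.3, 24.5, 9.37 and 12.9 TPM in Hap-II adult WD libraries, against 60.0, 77.6, 64.5 and 71.4 TPM in C57 libraries. C57 values lay above all but 1 western diet library, library 2 of Hap-I aged WD. Cyp2d26 (chr15:82790101-82794294) had 97.9, 341, 85.5 and 13.1 TPM in Hap-I aged WD, 139, 39.2, 42.9 and 20.5 TPM in Hap-I adult WD and 347, 154, 30.9 and 77.3 TPM in Hap-II adult WD libraries, against 194, 194, 187 and 215 TPM in C57 libraries. Library 2 of Hap-I aged WD and library 1 of Hap-II adult WD exceeded every C57 library, and all Hap-I adult WD libraries lay below C57. Cyp2d9, a testosterone hydroxylase, ranged over 1.98 to 178 TPM (median 17.2) and Cyp2d12 over 12.2 to 235 TPM (median 49.2) in the kidney libraries. Cyp2f2, which activates naphthalene in mouse airway, had 6.42, 5.82, 12.2 and 10.3 TPM in Hap-I aged WD, 3.48, 9.68, 11.2 and 10.8 TPM in Hap-I adult WD and 7.78, 7.01, 11.1 and 11.2 TPM in Hap-II adult WD libraries, against 4.78, 4.19, 4.78 and 2.79 TPM in C57 libraries. All western diet libraries but library 1 of Hap-I adult WD were above C57 for Cyp2f2. Cyp2s1, an inducible enzyme of surface epithelia, had 2.67, 6.12, 3.78 and 1.93 TPM in Hap-I aged WD, 3.34, 2.12, 2.68 and 1.36 TPM in Hap-I adult WD and 7.36, 2.52, 1.97 and 3.33 TPM in Hap-II adult WD libraries, against 7.72, 11.4, 11.2 and 12.1 TPM in C57 libraries, and all 4 C57 values exceeded all 12 on western diet. Cyp2r1, a vitamin D hydroxylase, had 1.33, 0.529, 0.851 and 0.760 TPM in Hap-I aged WD, 2.35, 1.31, 1.42 and 1.28 TPM in Hap-I adult WD and 1.05, 1.60, 1.91 and 1.08 TPM in Hap-II adult WD libraries, against 1.04, 0.835, 0.975 and 0.697 TPM in C57 libraries. Both adult western diet groups lay above C57 for Cyp2r1, and Hap-I aged WD overlapped C57. Cyp2u1, a fatty acid hydroxylase, had 0.417, 0.860, 0.270 and 0.337 TPM in Hap-I aged WD, 0.415, 0.157, 0.126 and 0.135 TPM in Hap-I adult WD and 0.467, 0.328, 0.126 and 0.224 TPM in Hap-II adult WD libraries, against 0.983, 1.09, 1.13 and 1.14 TPM in C57 libraries. C57 values of Cyp2u1 were above all 12 on western diet. Cyp2c69 stayed at or under 1.70 TPM.

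The genes of other families were of lower abundance in kidney. Cyp27a1, the mitochondrial sterol hydroxylase, had 16.8, 31.1, 31.2 and 16.6 TPM in Hap-I aged WD, 16.7, 14.7, 16.0108 and 13.1 TPM in Hap-I adult WD and 25.9, 14.6, 12.05 and 21.6 TPM in Hap-II adult WD libraries, against 27.9, 30.7, 28.4 and 31.1 TPM in C57 libraries. Both adult western diet groups lay below C57 for Cyp27a1, and libraries 2 and 3 of Hap-I aged WD reached C57 levels. Cyp7b1, which clears oxysterols (ENSMUSG00000039519, GRCm38 chr3:18071950-18243338, minus strand), had 0.449, 0.417, 37.0 and 9.49 TPM in Hap-I aged WD, 1.21, 46.5, 33.4 and 16.5 TPM in Hap-I adult WD and 0.835, 0.901, 26.4 and 20.9 TPM in Hap-II adult WD libraries, against 4.41, 8.75, 7.80 and 4.48 TPM in C57 libraries. Western diet libraries with Y-linked transcripts held 9.49 to 46.5 TPM of Cyp7b1 and those without held 0.417 to 1.21 TPM, with C57 kidneys between them. Cyp1b1, an oestradiol hydroxylase, had 5.74, 3.70, 4.56 and 1.71 TPM in Hap-I aged WD, 6.03, 2.28, 2.60 and 0.237 TPM in Hap-I adult WD and 2.08, 2.16, 1.39 and 2.14 TPM in Hap-II adult WD libraries, against 3.15, 9.41, 9.26 and 4.77 TPM in C57 libraries. Cyp20a1, an enzyme of unknown substrate, had 9.08, 11.1, 8.59 and 6.63 TPM in Hap-I aged WD, 8.37, 7.601, 6.92 and 3.66 TPM in Hap-I adult WD and 11.6, 11.5, 7.16 and 7.40 TPM in Hap-II adult WD libraries, against 12.6, 15.5, 16.8 and 14.2 TPM in C57 libraries. All C57 values of Cyp20a1 exceeded all western diet values. For Cyp1b1 both Hap-I western diet groups overlapped C57 and Hap-II adult WD lay below it. Cyp39a1, an oxysterol hydroxylase, had 0.8294, 1.16, 0.818 and 0.147 TPM in Hap-I aged WD, 1.49, 1.56, 0.422 and 0.236 TPM in Hap-I adult WD and 3.35, 3.62, 0 and 1.08 TPM in Hap-II adult WD libraries, against 1.01, 3.33, 2.06 and 3.34 TPM in C57 libraries. Each western diet group overlapped C57 for Cyp39a1.

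Within the 12 western diet libraries, 33 P450 genes reached 1 TPM in at least 4. Of these, 7 were higher in every library with Y-linked transcripts than in every library without (Cyp2d9, Cyp2e1, Cyp2f2, Cyp2j13, Cyp4a12a, Cyp4b1 and Cyp7b1), or 21.2%, against 1.07% of all 12206 genes. Another 5 were lower in every such library (Cyp2c23, Cyp2d26, Cyp4a14, Cyp4f16 and Cyp4v3), or 15.2%, against 4.49% of all genes. The 7 and 5 libraries are not groups of the study, and no test was made between them. Hap-I adult WD holds 3 libraries with Y-linked transcripts and 1 without, Hap-I aged WD and Hap-II adult WD hold 2 and 2, and C57 holds 4 without, so the comparisons with C57 are given also with that composition held apart.

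**Figure D2:**
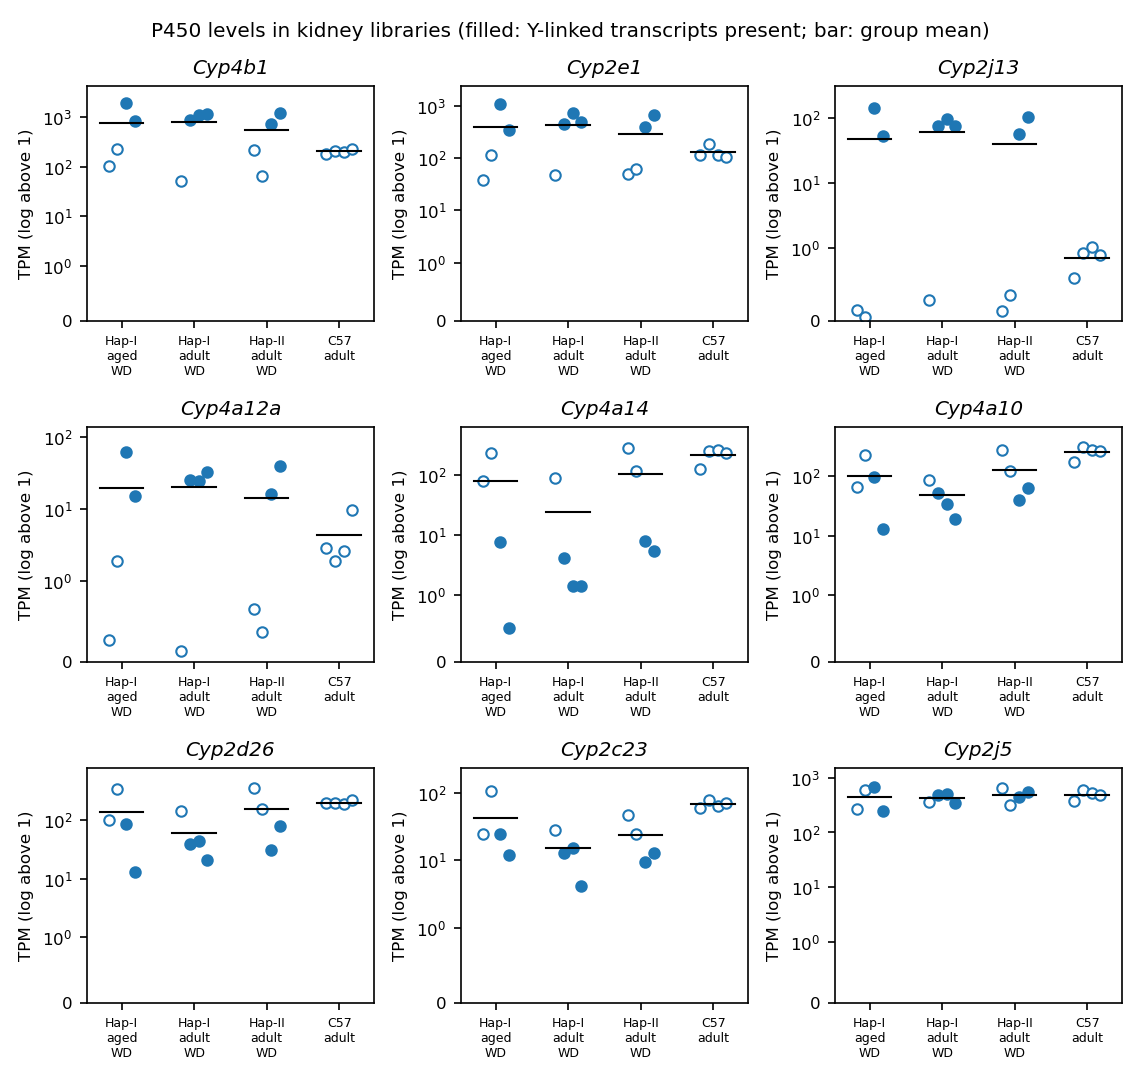
TPM of 9 P450 genes (vertical axis, logarithmic above 1 TPM and linear below) in the 4 kidney groups, 1 circle per library, filled where Y-linked transcripts sum to 5 TPM or more, with a bar at the mean of 4. Cyp4b1, Cyp2e1, Cyp2j13 and Cyp4a12a are high in the filled circles and Cyp4a14 and Cyp2d26 in the open circles of the western diet groups, whereas Cyp2j5 shows no such gap.

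Age on western diet, Hap-I aged WD against Hap-I adult WD, moved no P450 gene past the threshold. With limma on log2(TPM + 1) and an adjusted p under 0.05 over all genes, 0 of 34 genes tested were called, where 0.0310% of all 12923 genes were. At an unadjusted p under 0.05 there were 2080 of all genes and, a smaller share, 4 of the 34 P450 genes. These were Cyp2a5 (log2 difference 0.94 ± 0.43, adjusted p = 0.3; errors of log2 differences are SE), Cyp27a1 (0.57 ± 0.26, adjusted p = 0.291), Cyp4f18 (0.54 ± 0.22, adjusted p = 0.264) and Cyp2r1 (-0.47 ± 0.20, adjusted p = 0.268). The median difference was 0.39 over the 34 genes and 0.32 over all genes. The widest errors, on Cyp2j13, Cyp4a14, Cyp4a12a, Cyp7b1, Cyp2d9 and Cyp4b1, belonged to genes that did not overlap between libraries with and without Y-linked transcripts. Cyp4b1 differed by -0.16 ± 1.03 and Cyp2j13 by -1.57 ± 1.76. Among only the libraries with Y-linked transcripts, 2 aged and 3 adult, Cyp4b1 differed by 0.28 ± 0.37, adjusted p = 0.73, and Cyp4a14 by 0.21 ± 0.68, adjusted p = 0.895. A p above the threshold does not show that the ages are alike.

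Haplotype on western diet, Hap-I adult WD against Hap-II adult WD, likewise gave 0 of 34 called, where 0.0774% of all genes were. At an unadjusted p under 0.05 there were 0 of the 34, and 421 of all 12923 genes. The median difference was -0.23 over the P450 genes and -0.22 over all genes. Cyp4a31 differed by -1.09 ± 0.55, adjusted p = 0.817, Cyp4a10 by -1.19 ± 0.69, adjusted p = 0.817 and Cyp4a14 by -2.39 ± 1.48, adjusted p = 0.817. Hap-I adult WD was lower in these means, and the libraries of the groups overlapped for each. Cyp2j5 (-0.19 ± 0.32) and Cyp2f2 (-0.15 ± 0.32) had narrower errors. No alternative fit called any P450 gene in either comparison.

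Against C57 kidneys, Hap-I adult WD libraries had fewer P450 transcripts for many genes, beside a shift of the whole table. The median log2 difference of all genes was -0.80, and that of the 34 P450 genes was also -0.80, with 17 of 34 below the all-gene median. At an adjusted p under 0.05, 16 P450 genes were lower and 1 was higher, where 59.7% of all genes were lower and 2.28% higher. The share lower, 16 of 34, was under that of all genes. After median-of-ratios rescaling, which sets the typical gene to no change, 7 P450 genes were lower and 4 higher, where 14.2% of all genes were lower and 17.8% higher. With both scalings 8 genes were called in the same direction. Cyp4a14 (-4.87 ± 1.48, adjusted p = 0.0111; -4.07 relative to the all-gene median), Cyp4a10 (-2.54 ± 0.69, adjusted p = 0.00629; -1.74), Cyp2c23 (-2.35 ± 0.59, adjusted p = 0.00432; -1.55) and Cyp2d22 (-1.57 ± 0.38, adjusted p = 0.00389; -0.76) fell. So did Cyp2s1 (-1.80 ± 0.33, adjusted p = 0.0012; -1.001), Cyp4f14 (-1.64 ± 0.36, adjusted p = 0.00227; -0.84) and Cyp4v3 (-1.61 ± 0.31, adjusted p = 0.00141; -0.81). Cyp2f2 rose (0.85 ± 0.32, adjusted p = 0.0299; 1.65), though it differed by -0.18 between libraries without Y-linked transcripts. Of the 17 calls, 10 were lost with a term for Y-linked transcripts, and the counts include Cyp4f14, which had to differ. Cyp2d22, named in this comparison, had 4.35, 10.5, 7.68 and 3.09 TPM in Hap-I aged WD, 5.46, 2.66, 3.08 and 2.91 TPM in Hap-I adult WD and 12.2, 5.27, 2.08 and 4.24 TPM in Hap-II adult WD libraries, against 10.1, 12.8, 13.2 and 12.3 TPM in C57 libraries.

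The other 9 genes called lower in the deposited TPM were not called after rescaling. Cyp2d26 (-2.05 ± 0.80, adjusted p = 0.036) and Cyp4a31 (-1.92 ± 0.55, adjusted p = 0.00829) had the largest differences among them, and Cyp2j6 (-1.02 ± 0.27, adjusted p = 0.00511) and Cyp27a1 (-0.92 ± 0.26, adjusted p = 0.00693; 0.051 after rescaling) the smallest. The remaining ones were Cyp1b1, Cyp2a5, Cyp4f13, Cyp4f16 and Cyp20a1. Cyp2j5 differed by -0.22 ± 0.32, adjusted p = 0.548 in the deposited TPM and by 0.80 ± 0.29, adjusted p = 0.0442 after rescaling. Its direction therefore depended on the scaling. Cyp2j9 and Cyp2r1 were not called in the deposited TPM and were called higher after rescaling (0.99 ± 0.27, adjusted p = 0.0137 and 0.95 ± 0.23, adjusted p = 0.0087). Cyp2r1 lay near the limit of the filter on low values, at 0.697 to 1.04 TPM in C57 kidneys. It passed that filter mainly through western diet libraries, so its call is partly fixed in advance.

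Hap-II adult WD against the same 4 C57 libraries gave 12 P450 genes lower and 1 higher, where 36.9% of all genes were lower and 2.73% higher. The median log2 difference was -0.66 over the 34 P450 genes and -0.59 over all genes, with 18 of 34 below the all-gene median. After rescaling, 2 were lower and 2 higher, where 9.77% of all genes were lower and 12.9% higher. Cyp2s1 (-1.38 ± 0.33, adjusted p = 0.008; -0.79 relative to the all-gene median) and Cyp4f14 (-1.40 ± 0.36, adjusted p = 0.0101; -0.81) fell and Cyp2f2 rose (0.99 ± 0.32, adjusted p = 0.025; 1.59) with both scalings. Cyp2r1 was called higher after rescaling, though it passed the filter mainly through western diet libraries. Cyp2a5 had the largest called difference (-2.16 ± 0.43, adjusted p = 0.00371), followed by Cyp2c23 (-1.76 ± 0.59, adjusted p = 0.0299). The summed copies Cyp2a4 and Cyp2a5 differed by -1.32 (adjusted p = 0.0227) in Hap-II adult WD and by -0.90 (adjusted p = 0.0666) in Hap-I adult WD, which ends the call of Cyp2a5 in the second. Cyp4a10 (-1.36 ± 0.69, adjusted p = 0.117) and Cyp4a14 (-2.48 ± 1.48, adjusted p = 0.177) did not pass. The count of 13 fell to 3 without library 3 and to 6 without library 4 of Hap-II adult WD, and to 6, 7 and 4 without C57 libraries 10, 11 and 12. With mitochondrially encoded genes removed it was 8. Counts over all genes are not set beside these, so the falls are not shown to be particular to P450 genes.

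With a term for Y-linked transcripts in the fit, 11 P450 genes were lower and 0 higher in Hap-I adult WD against C57, where 24.4% of all genes were lower and 0.998% higher. In Hap-II adult WD 6 were lower and 0 higher, where 13.5% of all genes were lower and 1.42% higher. Cyp2s1 was called lower in both comparisons under the deposited TPM, the rescaling and this term, as was Cyp4f14, which passed the filter only through C57, and Cyp4v3 was in the Hap-I comparison. With the term, Cyp2s1 differed by -1.47 ± 0.36, adjusted p = 0.0191 in Hap-I and -1.14 ± 0.34, adjusted p = 0.0364 in Hap-II adult WD. Cyp7b1 was lower with it in Hap-I adult WD (-1.64 ± 0.33, adjusted p = 0.0117) and in Hap-II adult WD (-2.07 ± 0.31, adjusted p = 0.00203). Without it Cyp7b1 was not called in Hap-I adult WD (1.16 ± 1.13, adjusted p = 0.375). Of the 17 genes called in Hap-I adult WD without the term, 10 were not called with it, among them Cyp4a14, Cyp4a10, Cyp2c23, Cyp2d22 and Cyp2f2, and of the 13 in Hap-II adult WD, 9 were not. Using only libraries without Y-linked transcripts, 1 Hap-I adult WD library gave 0 called, and 2 Hap-II adult WD libraries gave 1, Cyp7b1 (-1.93 ± 0.31, adjusted p = 0.0457). The lone Hap-I library was assumed to vary like the others. Fewer libraries enter these fits, and counts over all genes are not set beside them. The low counts are therefore not shown to be particular to P450 genes. Marker sums of several nephron segments and other kidney cells were lower beside these differences. These are sums of deposited TPM. In that scaling, without the Y-linked term, 59.7% of all genes were lower in Hap-I and 36.9% in Hap-II adult WD. The proximal tubule sum was 757 to 1348 TPM in Hap-I adult WD and 831 to 2542 TPM in Hap-II adult WD, against 2318 to 3431 TPM in C57 kidneys. The sum of 4 thick ascending limb markers was 46.5 to 766 TPM in Hap-I adult WD and 349 to 1805 TPM in Hap-II adult WD, against 1632 to 3207 TPM in C57 kidneys. Hap-I adult WD did not overlap C57 in either sum, and Hap-II adult WD did. The sum of 6 collecting duct markers was 40.8 to 201 TPM in Hap-I adult WD and 75.0 to 321 TPM in Hap-II adult WD, against 352 to 687 TPM in C57 kidneys. The sum of 4 smooth muscle markers was 20.4 to 49.3 TPM in Hap-I adult WD and 17.3 to 25.1 TPM in Hap-II adult WD, against 55.5 to 110.4 TPM in C57 kidneys. The sum of 5 endothelial markers was 65.1 to 126 TPM in Hap-I adult WD and 65.5 to 138 TPM in Hap-II adult WD, against 176 to 228 TPM in C57 kidneys. In these 3 sums neither western diet group overlapped C57. The podocyte sum was 44.1 to 101 TPM in Hap-I adult WD and 41.3 to 120 TPM in Hap-II adult WD, against 95.4 to 159 TPM in C57 kidneys. It overlapped C57 in both groups, as did the macrophage and adipocyte sums. The part of these cell types in the P450 differences was not tested.

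**Figure D3:**
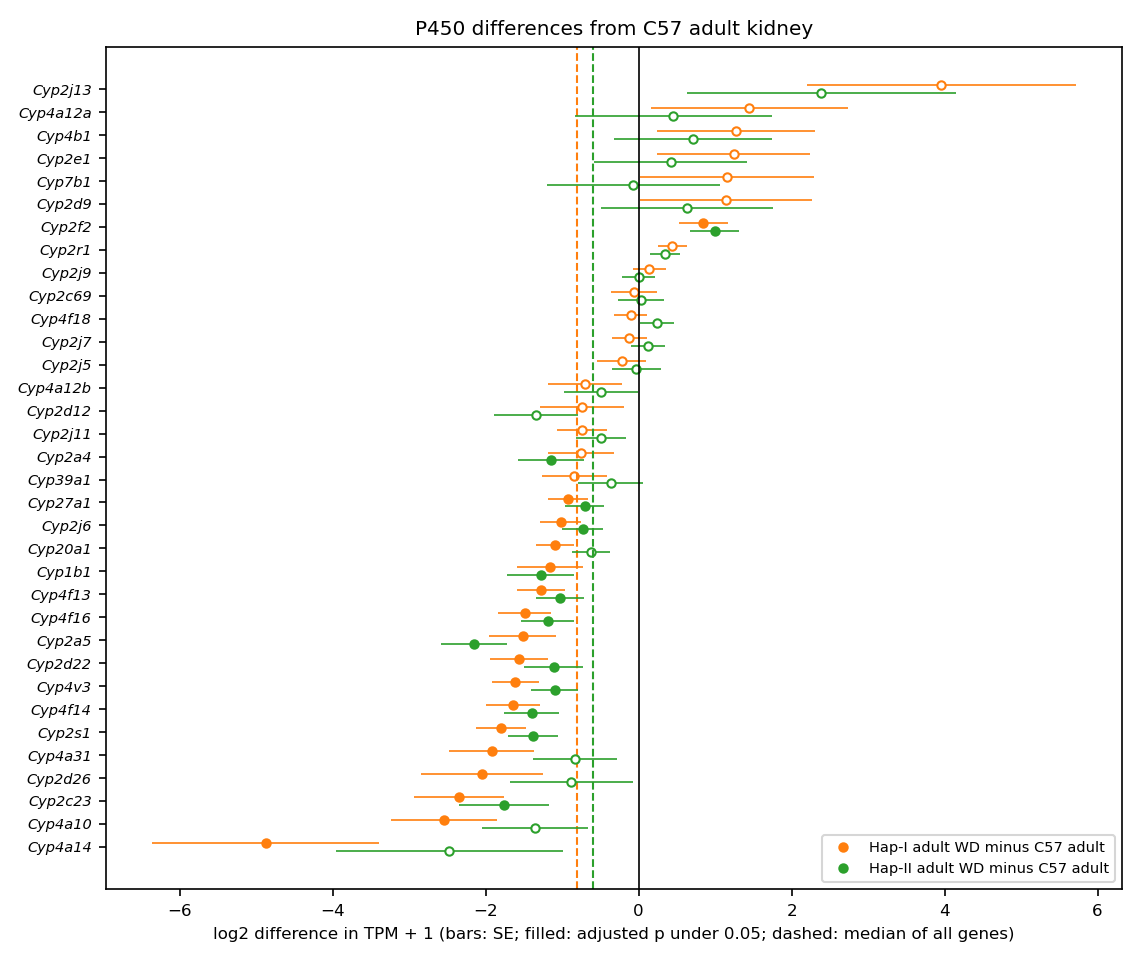
Log2 differences in TPM + 1 from C57 adult kidney (horizontal axis) for 34 P450 genes in Hap-I adult WD (orange) and Hap-II adult WD (green), with SE bars, filled circles at an adjusted p under 0.05 and dashed lines at the median of all genes, -0.80 and -0.59. The comparisons share their C57 libraries; Cyp4a14 and Cyp2j13 have the widest errors and Cyp2f2 is the only filled circle right of 0.

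Adult Hap-I libraries without the diet held another set of P450 transcripts than C57 kidneys, beside their neuronal transcripts. Of 36 genes tested, 9 were higher and 23 lower, where 49.2% of all 14249 genes were higher and 27.6% lower. The median log2 difference was -1.53 over the P450 genes and 0.43 over all genes. Of the 36, 15 reached 1 TPM only in C57 libraries and 3 (Cyp2j12, Cyp2t4 and Cyp4x1) only in Hap-I adult libraries. These 18 passed the filter through the group where they are high and had to differ. Cyp46a1 and Cyp11a1, with C57 medians of 0.621 and 0.820 TPM, passed it mainly through Hap-I adult libraries. Their p-values below are therefore partly fixed in advance too. After rescaling, 8 were higher and 26 lower, where 38.3% of all genes were higher and 37.9% lower. Cyp46a1, the cholesterol hydroxylase of neurons (ENSMUSG00000021259, GRCm38 chr12:108334381-108362234, plus strand), had 93.0, 87.4, 115 and 125 TPM in Hap-I aged and 119, 98.3, 92.8 and 131 TPM in Hap-I adult libraries without the diet, against 0.635, 0.608, 0.507 and 1.04 TPM in C57 libraries, a log2 difference of 6.03 ± 0.16, adjusted p = 7.74e-11 between the adults. On western diet it lay at 0.150 to 0.625 TPM (median 0.360). Cyp2d22 ranked next to Cyp2j9 in these libraries, with 23.9, 22.6, 24.9 and 23.9 TPM in Hap-I aged and 18.8, 18.1, 15.9718 and 16.1 TPM in Hap-I adult libraries without the diet, against 10.1, 12.8, 13.2 and 12.3 TPM in C57 libraries (0.48 ± 0.14, adjusted p = 0.00779), though its difference was -0.065 after quantile normalization. Cyp7b1, which acts on the oxysterols that such hydroxylases form, had 22.0, 21.3, 19.2 and 17.3 TPM in Hap-I aged and 17.9, 20.7, 14.6 and 15.6 TPM in Hap-I adult libraries without the diet, against 4.41, 8.75, 7.80 and 4.48 TPM in C57 libraries (1.34 ± 0.22, adjusted p = 0.000216). Cyp46a1 thus separated the libraries by a wide gap, and Cyp7b1 without overlap but by less. Cyp4f15 had 10.99, 12.6, 14.4 and 12.6 TPM in Hap-I aged and 11.1, 10.1, 8.72 and 7.77 TPM in Hap-I adult libraries without the diet, against 2.31, 0.259, 0.531 and 1.22 TPM in C57 libraries (2.41 ± 0.27, adjusted p = 1.08e-05). Cyp4x1, a fatty acid enzyme known from brain, had 8.64, 8.09, 8.58 and 7.601 TPM in Hap-I aged and 5.09, 7.23, 5.85 and 7.50 TPM in Hap-I adult libraries without the diet, against 0.0363, 0.136, 0.0921 and 0.0857 TPM in C57 libraries (2.76 ± 0.15, adjusted p = 1.6e-08). Cyp2j9 (2.63 ± 0.16, adjusted p = 6.24e-08) and Cyp2j12 (1.88 ± 0.13, adjusted p = 1.32e-07), listed above, were higher too. Cyp2t4 had 1.08, 1.37, 1.58 and 1.25 TPM in Hap-I aged and 1.30, 1.25, 1.70 and 1.78 TPM in Hap-I adult libraries without the diet, against 0.0667, 0.167, 0.173 and 0.190 TPM in C57 libraries (1.12 ± 0.12, adjusted p = 8.61e-06).

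Cyp11a1, the side chain cleavage enzyme that starts steroid synthesis, had 4.11, 6.78, 8.06 and 6.20 TPM in Hap-I aged and 8.49, 9.63, 12.3 and 6.11 TPM in Hap-I adult libraries without the diet, against 0.711, 2.61, 0.665 and 0.929 TPM in C57 libraries (2.23 ± 0.27, adjusted p = 2e-05), and it stayed at or under 0.182 TPM on western diet. Cyp21a1, a steroid hydroxylase of the adrenal cortex, had 0.397, 0.550, 0.259 and 0.853 TPM in Hap-I aged and 0.768, 7.64, 6.15 and 1.31 TPM in Hap-I adult libraries without the diet, against 0.594, 2.18, 0.494 and 1.20 TPM in C57 libraries (0.98 ± 0.49, adjusted p = 0.0884). Its 2 highest values were in libraries 2 and 3 of Hap-I adult, the same that held Cyp11b1, a cortisol-forming enzyme in people, at 2.11 and 2.41 TPM. The 5 adrenal cortex markers summed to 3.42 to 5.23 TPM in Hap-I aged and 4.12 to 12.4 TPM in Hap-I adult libraries without the diet, against 5.68 to 7.99 TPM in C57 kidneys, with none at 0 throughout. Their part in the Cyp11a1 and Cyp21a1 values was not tested. The largest lower values were those of Cyp2j5 (-8.83 ± 0.16, adjusted p = 8.19e-12), Cyp2a4 (-8.40 ± 0.13, adjusted p = 5.08e-12), Cyp4a10 (-7.93 ± 0.18, adjusted p = 2.16e-11) and Cyp4a14 (-7.71 ± 0.22, adjusted p = 1.09e-10). Next came Cyp2d26 (-7.63 ± 0.12, adjusted p = 5.08e-12), Cyp4a31 (-7.35 ± 0.26, adjusted p = 5.81e-10), Cyp2j11 (-7.20 ± 0.14, adjusted p = 1.08e-11) and Cyp4b1 (-7.11 ± 0.13, adjusted p = 8.19e-12). In this comparison all of these genes, from Cyp2j5 to Cyp4b1, reached 1 TPM only in C57 libraries. They had to be lower, so their p-values are not evidence beyond their levels. Over the 8 Hap-I libraries without the diet Cyp4b1 lay at 0.392 to 1.20 TPM (median 0.545), Cyp4a10 at 0 to 0.937 TPM (median 0.0944) and Cyp2a4 at 0 to 0.987 TPM (median 0.0991). Cyp20a1 fell by the least among the 23 (-0.54 ± 0.14, adjusted p = 0.00547). This comparison sets different tissue contents beside each other.

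**Figure D4:**
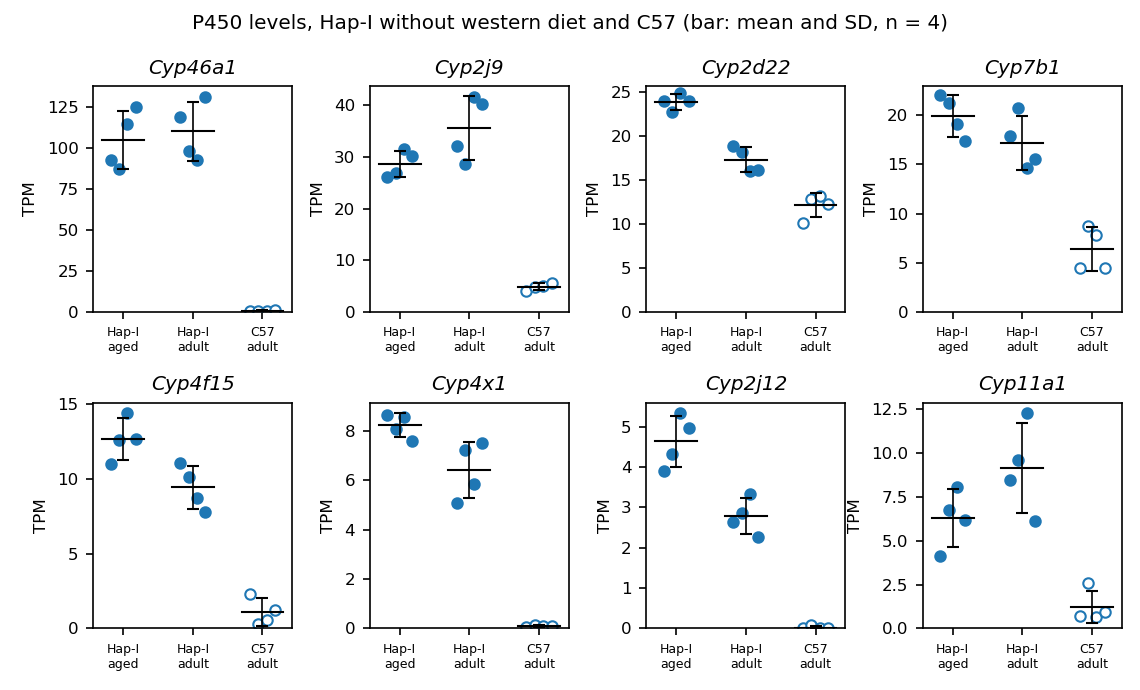
TPM (linear axes from 0) of 8 P450 genes in Hap-I aged and Hap-I adult libraries without western diet and in C57 adult kidney, 1 circle per library, with mean and SD bars of 4. Cyp46a1 averages 105 ± 17.8 TPM and 110.3 ± 18.0 TPM in the Hap-I groups, against 0.698 ± 0.235 TPM in C57.

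Age without the diet, Hap-I aged against Hap-I adult, gave 0 of 18 P450 genes called, where 0.0296% of all 13497 genes were, and 6 had an unadjusted p under 0.05. The count of all genes at that unadjusted p is not set beside it, so the 6 are not shown to exceed the share of all genes. All 6 had higher means in the aged libraries, beside a median of 0.12 over all genes. Cyp2j12 averaged 4.63 ± 0.638 TPM in aged and 2.78 ± 0.441 TPM in adult libraries (0.58 ± 0.14, adjusted p = 0.208), without overlap. Cyp2d22 averaged 23.8 ± 0.924 TPM in aged and 17.3 ± 1.45 TPM in adult libraries (0.45 ± 0.10, adjusted p = 0.187). Cyp27a1 (0.48 ± 0.16, adjusted p = 0.235), Cyp4f15 (0.40 ± 0.14, adjusted p = 0.245), Cyp4x1 (0.33 ± 0.14, adjusted p = 0.305) and Cyp20a1 (0.29 ± 0.11, adjusted p = 0.277) were the others. When all 24 libraries shared a spread, Cyp2j12 alone was called (0.58 ± 0.10, adjusted p = 0.00639). Its kidney values, at or under 0.0744 TPM, narrow that spread, so this call cannot decide on age. The share of all genes called in that fit is not set beside it. Cyp46a1 differed by -0.07 ± 0.15.

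Genes that serve or regulate P450 enzymes were followed in 7 lists. In the age comparisons and between haplotypes, none of their genes was called. Pairs of values below are for Hap-I adult WD, then Hap-II adult WD, each against C57, where 59.7% and 36.9% of all genes were lower, and 14.2% and 9.77% after rescaling. Counts are over the genes of each list that passed the filter on low values. The lists were not refitted with a term for Y-linked transcripts, so that composition is not held apart for any gene named from them. Among 10 electron donors and partners, 6 were lower and 0 higher in Hap-I adult WD, and 3 lower and 1 higher in Hap-II adult WD, against C57, shares near those of all genes. Por, the reductase that feeds most P450 enzymes, fell in both (-2.09 ± 0.41, adjusted p = 0.00145 and -1.92 ± 0.41, adjusted p = 0.00462), also after rescaling (-1.08 ± 0.32, adjusted p = 0.0199 and -1.18 ± 0.32, adjusted p = 0.0187), when 2 and 1 of the list were lower and 2 and 1 higher. Fdx1, the ferredoxin that feeds mitochondrial P450 enzymes, was higher after rescaling in both (1.42 ± 0.34, adjusted p = 0.00851 and 1.24 ± 0.34, adjusted p = 0.021). Of 13 genes of haem synthesis and breakdown, 5 were lower in Hap-I and 4 in Hap-II adult WD, Alas1, the first enzyme of haem synthesis, by most (-1.77 ± 0.47, adjusted p = 0.00577 and -1.81 ± 0.47, adjusted p = 0.011). After rescaling 0 were lower, and 6 and 3 were higher. Of 16 other eicosanoid enzymes, 9 and 8 were lower, among them the epoxide hydrolase Ephx1 (-2.38 ± 0.43, adjusted p = 0.00116 and -2.19 ± 0.43, adjusted p = 0.00335), the prostaglandin synthase Ptges (-2.12 ± 0.43, adjusted p = 0.00176 and -1.74 ± 0.43, adjusted p = 0.00908) and the cyclooxygenase Ptgs1 (-1.82 ± 0.30, adjusted p = 0.000825 and -1.70 ± 0.30, adjusted p = 0.00181). After rescaling 7 and 5 of these were lower and 3 and 3 higher.

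PPAR alpha targets numbered 17, and 15 were lower in Hap-I adult WD and 8 in Hap-II adult WD, with median log2 differences of -1.36 and -0.83 beside -0.80 and -0.59 over all genes. After rescaling 3 and 1 were lower and 0 and 2 higher. Hadha, a mitochondrial fatty acid oxidation subunit, fell with both scalings (-2.48 ± 0.44, adjusted p = 0.00109 and -1.80 ± 0.44, adjusted p = 0.00846; rescaled -1.47 ± 0.27, adjusted p = 0.00249 and -1.07 ± 0.27, adjusted p = 0.0144). Of 21 receptors and transcription factors, 16 and 7 were lower, and after rescaling 1 and 1 were lower and 1 and 2 higher. Of 13 genes of oxysterol and steroid steps outside the P450 family, 7 and 7 were lower. Akr1c18, which inactivates progesterone, had the largest difference (-6.02 ± 1.07, adjusted p = 0.00112 and -4.21 ± 1.07, adjusted p = 0.01), followed by Hsd11b2, which inactivates corticosterone (-2.20 ± 0.53, adjusted p = 0.00351 and -1.75 ± 0.53, adjusted p = 0.0198). After rescaling 5 and 3 were lower and 2 and 0 higher. Of 10 genes of retinoid metabolism, 8 and 5 were lower, led by the retinol carrier Rbp4 (-2.65 ± 0.46, adjusted p = 0.00105 and -2.73 ± 0.46, adjusted p = 0.00153), and after rescaling 3 and 1 were lower and 1 and 1 higher. In adult Hap-I libraries without the diet against C57, where 27.6% of all genes were lower and 49.2% higher, 16 of 17 PPAR alpha targets were lower and 0 higher, and 11 of 21 receptors and factors were lower and 2 higher, with Hnf4a, a nuclear receptor of liver and proximal tubule, at -7.42 ± 0.19, adjusted p = 5.06e-11. The counts lower and higher were 5 and 3 of 10 electron donors and partners, 9 and 2 of 13 haem genes, 9 and 5 of 18 eicosanoid enzymes, 8 and 1 of 12 steroid and oxysterol genes, and 5 and 2 of 10 retinoid genes. After rescaling, where 37.9% of all genes were lower and 38.3% higher, 17 PPAR alpha targets were lower and 0 higher, and 16 receptors and factors were lower and 1 higher. The other lists then had 5 lower and 0 higher for electron donors and partners, 11 and 0 for haem genes, 12 and 5 for eicosanoid enzymes, 9 and 1 for steroid and oxysterol genes, and 5 and 0 for retinoid genes. In the fit of the 8 Hap-I libraries without the diet, 14 PPAR alpha targets and 15 receptors and factors passed the filter, against 17 and 21 with C57. Genes that passed only through C57 had to be lower, so these counts and p-values are partly fixed in advance.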

How the data were processed

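Polyadenylated RNA of 24 libraries labelled as mouse kidney was sequenced from stranded TruSeq libraries, per the labels' protocols. The authors deposited 1 table of TPM per gene and library. Kallisto, DESeq2 and GRCm38 are named, with no versions or roles, per the submitters' processing notes. The annotation release is not given in the sources used here. TPM keep no depth, so no counting interval is given. Of 30153 identifiers, 29732 matched a GENCODE M21 symbol.

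Values were tested as log2(TPM + 1) with limma 3.58.1 in R 4.3.3 (a mean per group, eBayes with trend, two-sided), Benjamini-Hochberg adjusted over all genes with 1 TPM or more in 4 or more libraries of the fit, at a threshold of 0.05. Differences on this scale understate those of low genes. Kidney comparisons used the 16 kidney libraries. Age without the diet used the 8 Hap-I libraries without it, and Hap-I adult against C57 used the 4 libraries of each. P-values measure the spread between libraries of a group. The fit was tested on simulated data. Genes were taken as near copies where at least 50% of the 31-base words of 1 of the pair occur in the other. All 42 genes above the limit were to be named, with library values for the largest called differences, the most abundant genes and a panel. A gene of the receptor list is not reported here. The genes, lists and tests were chosen with earlier results of these data known.

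The P450 counts and the differences of named genes were recomputed with 0.1 in place of 1 as pseudocount, with every gene or only those at 5 TPM kept, after median-of-ratios or quantile scaling, with mitochondrially encoded genes removed, with all 24 libraries or only the compared groups, with gene copies summed and with each library left out, with a Y-linked covariate in the kidney comparisons, and with the replicate number as a block in the western diet comparisons without C57. The 7 lists were recomputed only after median-of-ratios rescaling. Fits on libraries with or without Y-linked transcripts, and the unblocked fit on the same 12 libraries, were chosen after seeing the data.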

Additional observations from a re-analysis of the deposited data

Results flagged for a closer look

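In 128 groups of 4 libraries whose highest value reached 5 TPM, 9 held a library whose gap to the nearest other exceeded Dixon's 95% limit as a share of the group's range. That is 7.03%, where chance gives about 1 in 20. On western diet, Cyp4a14 stood at 90.5 TPM in Hap-I adult WD library 1, against 1.41 to 4.09 TPM in the other 3, and Cyp2d22 stood at 5.46 TPM in the same library, against 2.66 to 3.08 TPM. That library is the group's only one without Y-linked transcripts. Cyp2c23 had 105.6 TPM in Hap-I aged WD library 2, against 11.96 to 24.7 TPM, and Cyp4a12b had 7.45 TPM in library 3 of that group, against 0.201 to 0.654 TPM. Cyp2a4 was low in Hap-II adult WD library 2, at 86.8 TPM, against 192 to 203 TPM. In Hap-I adult libraries without the diet, Cyp2s1 had 5.38 TPM in library 4, against 2.40 to 2.82 TPM, and Cyp4f16 had 4.20 TPM in library 3, against 4.95 to 5.06 TPM. In C57 kidneys, Cyp2e1 had 188 TPM in library 10, against 103 to 114 TPM, and Cyp4a12a had 9.77 TPM in library 12, against 1.94 to 2.93 TPM.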

How the results depend on the processing

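In both western diet comparisons without C57 the count stayed at 0 of the P450 genes in every alternative. With the replicate number as a block it was 0 in each, as it was without the block on the same 12 libraries. Same-numbered libraries correlated at -0.132 to 0.54, over 0.1 in 8 of 12 pairs, with a mean of 0.182 against -0.06 for other numbers. The numbers partly follow the Y-linked transcripts, so these correlations cannot decide whether they pair the libraries. The main fits did not pair them. Leaving out single libraries gave counts of 0 to 0 in all 3 age and haplotype comparisons, 14 to 19 for Hap-I adult WD against C57 (17 with every library), 3 to 15 for Hap-II adult WD against C57 (13 with every library) and 32 to 33 for Hap-I adult against C57 (32 with every library). For Hap-I adult WD against C57 the count was 11 with median-of-ratios rescaling, 11 with quantile normalization, 11 with the Y-linked covariate and 0 with only libraries without Y-linked transcripts. For Hap-II adult WD against C57 the same alternatives gave 4, 7, 6 and 1, and removal of mitochondrially encoded genes gave 8. Age without the diet gave 1 with all 24 libraries, Cyp2j12, whose values near 0 in the kidney libraries narrow the shared spread. Beyond the shares given above for rescaling and the Y-linked covariate, counts over all genes are not set beside these. The falls are therefore not shown to be particular to P450 genes. Among genes called with or without the alternative, directions turned in 6 cases. Against C57, Cyp27a1 differed by 0.051 in Hap-I and 0.0035 in Hap-II adult WD after median-of-ratios rescaling, Cyp2j5 by 0.80 in Hap-I adult WD after it, Cyp7b1 by -1.64 in Hap-I adult WD with the Y-linked covariate, Cyp2f2 by -0.18 in Hap-I adult WD with only libraries without Y-linked transcripts, and Cyp2d22 by -0.065 in Hap-I adult without the diet after quantile normalization. Over all genes tested, called or not, more turned: 17 of 34 P450 genes had a positive difference between Hap-I adult WD and C57 after median-of-ratios rescaling, where 9 did in the deposited TPM, and 25 did between Hap-I aged WD and Hap-I adult WD with the Y-linked covariate, where 20 did without. For the settings that use fewer libraries, fewer samples enter the fit; otherwise the cause was not tested. The unknown depth, 4 libraries per group and their uneven Y-linked composition limit what can be seen of low or strongly varying genes.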
